A study of Mus musculus with 2 samples.

Results

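Ptma, Ptms, Tmsb4x, Tmsb10 and Tmpo are the mouse genes behind peptides that were first isolated from thymus extracts and named thymosins, prothymosin and thymopoietin. They were chosen by symbol, and all 5 were found in the gene and transcript tables among 43346 genes. The data are 2 RNA-seq libraries, biological replicates 1 and 2 of 1 group, made from adult thymus of the inbred mouse strain C57BL/6J at 8 weeks, with males and females pooled. The labels describe littermates and give both biosamples the same donor entry, so the spread between libraries may be technical in part. The series holds 1 condition, so what follows describes levels and transcripts and sets replicate 1 against replicate 2. Replicate 1 held 49.3 M and replicate 2 63.1 M estimated fragments, and all 8 T lineage markers examined, among them Rag1, Ptcra and Cd4, averaged over 100 TPM (the authors' transcript abundance, divided by length and scaled to the same total in each library).

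Despite their shared naming, these genes belong to separate families. Thymosin beta 4 (Tmsb4x) and thymosin beta 10 (Tmsb10) are short proteins that bind actin monomers and keep them out of filaments. Prothymosin alpha (Ptma) and parathymosin (Ptms) are highly acidic, largely nuclear proteins that bind histones, linker histone H1 among them, and thymosin alpha 1 is cut from the start of prothymosin alpha. Thymopoietin (Tmpo) encodes the lamina-associated polypeptides LAP2, proteins of the inner nuclear membrane and nucleoplasm that bind lamins and, through their LEM domain, the chromatin protein Banf1.

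On GRCm38 (mm10), Ptma lies on chromosome 1, 86526726 to 86530712, plus strand. The other 4 genes lie on minus strands. Ptms is on chromosome 6, 124913681 to 124920103, and Tmsb10 is on the same chromosome, 72957347 to 72958748. Tmsb4x is on chromosome X, 167207093 to 167209315, and Tmpo on chromosome 10, 91147571 to 91181315. The positions are from the GENCODE M21 gene models.

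The coding sequences of the leading beta thymosin transcripts are shown because they are the same length and can be set base against base. Both have 135 bases, stop codon included, and capitals mark the 40 bases at which they differ.
Tmsb4x-201: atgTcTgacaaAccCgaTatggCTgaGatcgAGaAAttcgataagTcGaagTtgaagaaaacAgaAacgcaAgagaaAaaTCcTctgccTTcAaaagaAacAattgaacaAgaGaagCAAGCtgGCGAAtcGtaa
Tmsb10-203: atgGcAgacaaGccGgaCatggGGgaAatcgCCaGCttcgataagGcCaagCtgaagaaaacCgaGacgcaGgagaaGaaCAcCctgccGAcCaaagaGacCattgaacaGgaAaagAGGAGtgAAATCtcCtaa
The other 95 bases, 70.4%, were identical, and 25 of the 40 differences fell on the third base of a codon. Of 45 codons, 18 were identical in all 3 bases.

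For prothymosin alpha and parathymosin the first 300 coding bases are shown with codons for aspartate and glutamate in capitals, because these codons set the pair apart from nearly all other genes.
Ptma-201: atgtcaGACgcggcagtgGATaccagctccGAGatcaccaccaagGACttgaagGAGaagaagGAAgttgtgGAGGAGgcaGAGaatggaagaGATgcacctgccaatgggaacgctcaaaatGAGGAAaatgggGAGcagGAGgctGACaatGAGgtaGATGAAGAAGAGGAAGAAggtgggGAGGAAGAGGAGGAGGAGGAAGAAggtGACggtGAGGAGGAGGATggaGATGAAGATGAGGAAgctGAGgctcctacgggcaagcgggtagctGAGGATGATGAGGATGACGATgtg
Ptms-201: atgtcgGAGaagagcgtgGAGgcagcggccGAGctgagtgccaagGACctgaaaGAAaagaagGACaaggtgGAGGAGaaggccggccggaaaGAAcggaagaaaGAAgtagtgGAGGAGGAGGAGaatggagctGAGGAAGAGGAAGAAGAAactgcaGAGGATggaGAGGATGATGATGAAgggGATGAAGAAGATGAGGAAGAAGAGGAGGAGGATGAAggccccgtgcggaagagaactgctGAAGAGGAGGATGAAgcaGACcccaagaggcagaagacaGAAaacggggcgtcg
Acidic codons made up 53 of 111 codons in Ptma-201, or 47.7%, and 46 of 101 codons in Ptms-201, or 45.5%. Among 21599 protein-coding genes with a complete coding sequence, each represented by its longest, the median was 11.1% and the highest 48.0%. Ptma ranked 2 and Ptms ranked 3. In the leading beta thymosin transcripts the share was 25.0% for Tmsb4x-201 and 22.7% for Tmsb10-203, of 44 codons each, and in Tmpo-201 it was 12.8% of 693 codons.

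Ptma stood highest of the 5 genes, with 2511 TPM in replicate 1 and 1815 TPM in replicate 2. Parathymosin followed with 598 and 601 TPM in replicates 1 and 2. Tmsb4x had 370 TPM in replicate 1 and 460 TPM in replicate 2. Tmsb10 lay below them with 156 and 140 TPM in replicates 1 and 2, and Tmpo had 135 TPM in replicate 1 and 80.8 TPM in replicate 2. The means were 2163 ± 493 TPM for Ptma, 599 ± 1.56 for Ptms, 415 ± 63.3 for Tmsb4x, 148 ± 11.6 for Tmsb10 and 108 ± 38.3 for Tmpo (SD, n = 2 each). The order was the same in both libraries, and no pair of neighbours in it overlapped. Ptma over Ptms was 4.20 times in replicate 1 and 3.02 times in replicate 2, and Tmsb4x over Tmsb10 was 2.37 and 3.29 times. Ptms over Tmsb4x was 1.62 and 1.31 times, and Tmsb10 over Tmpo was 1.16 and 1.73 times. The closest neighbours were thus Tmsb10 and Tmpo in replicate 1, and Ptms and Tmsb4x in replicate 2.

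**Figure D1:**
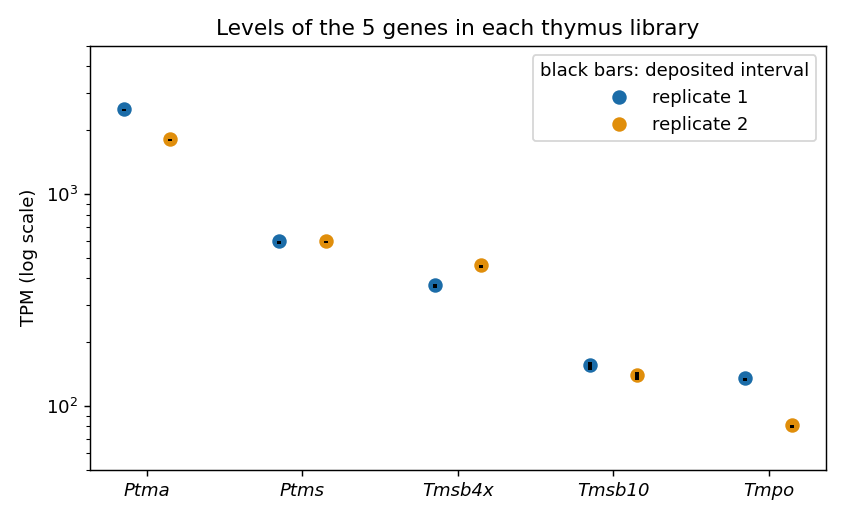
TPM (log scale) of each gene in replicate 1 (left point of each pair) and replicate 2 (right point), with black bars for the deposited interval. A bar need not hold its point, as for Ptma in replicate 1, with an interval of 2462 to 2507 TPM. Ptma lies highest in both libraries, at 2511 and 1815 TPM, Ptms gives nearly the same value in both, and Tmpo and Tmsb10 come close to each other in replicate 1, at 135 and 156 TPM.

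The deposited intervals of TPM were narrow beside the difference between libraries for Ptma, Tmsb4x and Tmpo. An interval need not hold the TPM given beside it. For Ptma in replicate 1 it ran over 2462 to 2507 TPM, below the TPM of 2511. For Tmpo the interval ran over 132 to 136 TPM in replicate 1 and 78.8 to 81.6 TPM in replicate 2. For Tmsb10, the member with the fewest fragments (1883 in replicate 1 and 2320 in replicate 2), it ran over 148 to 162 TPM in replicate 1 and 133 to 145 TPM in replicate 2. The level of these intervals is not given in the sources used here. Like the counting intervals given further on, they do not cover the spread between animals.

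Among 21474 protein-coding genes ranked by mean TPM, Ptma ranked 32, Ptms 157, Tmsb4x 274, Tmsb10 1007 and Tmpo 1456. All 5 exceeded 100 TPM, as did 7.37% of all protein-coding genes, whose median was 3.30 TPM. Counted as fragments without division by length, the order changed. Tmpo, whose effective length was 3302 bases in replicate 1 and 3292 bases in replicate 2, had 265 CPM (fragments scaled to the same total over genes in each library). It then stood above Tmsb4x, at 173 CPM, whose effective length was 553 and 552 bases. Ptma was again first with 1070 CPM and Ptms second with 420 CPM, while Tmsb10 was last with 38.1 CPM.

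**Figure D2:**
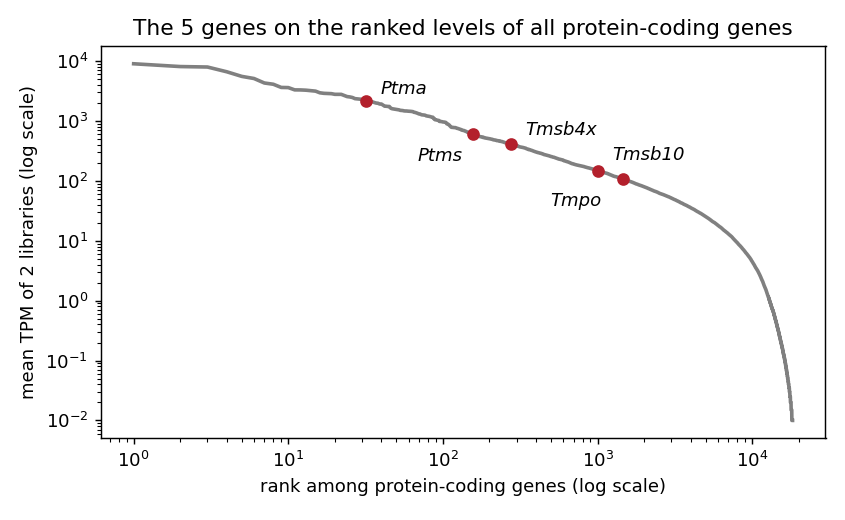
Mean TPM of 2 libraries (log scale) against rank (log scale) for all protein-coding genes (grey line), with the 5 genes in red. Ptma, at rank 32, is on the upper left and Tmpo, at rank 1456, is the lowest of the 5.

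The genes closest to each member over the 2 libraries were found by distance on log2(TPM + 1), which with 2 points mainly matches level. Ptma was closest to the histone variant gene H2afz (2630 TPM in replicate 1 and 1965 TPM in replicate 2, distance 0.13) and to Tpt1 (2184 and 1802 TPM, distance 0.20). Ptms was closest to Ldb1 and Tmbim6, and Tmsb4x to Lgals3bp and Tspo. Tmsb10 was closest to Rpn2 and Tagln2. Tmpo was closest to Rftn1 (136 and 80.1 TPM, distance 0.02) and Iqsec1 (132 and 82.3 TPM, distance 0.05).

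The beta thymosins were represented by Tmsb4x and Tmsb10 almost alone. Of the other family genes, Tmsb15a and Tmsb15b2 were listed at 0 TPM in both libraries. Tmsb15l had 0.78 TPM in replicate 1 and 1.05 TPM in replicate 2, and Tmsb15b1 had 0.96 and 1.06 TPM. Tmsb4x exceeded Tmsb10 by 2.37 times in replicate 1 and 3.29 times in replicate 2.

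A few genes of actin and its direct regulators stood far above the thymosins, while the list as a whole did not. Of 24 genes of actin and its regulators, 21 reached 10 TPM and 15 reached 100 TPM, and their median of 146 TPM lay below the means of Tmsb4x and Tmsb10. Actb, the cytoplasmic beta actin, had 7914 TPM in replicate 1 and 5362 TPM in replicate 2. The monomer-binding gene Pfn1 had 3770 and 2535 TPM, and Coro1a, a regulator of branched actin in leukocytes, 2630 and 2304 TPM. The lowest was Cap2, with 1.01 and 4.85 TPM. Actb and Actg1 together exceeded the sum of both thymosins by 17.4 times in replicate 1 and 10.6 times in replicate 2. Pfn1 exceeded that sum by 7.16 and 4.23 times, and the filament-severing gene Cfl1 by 2.53 and 2.01 times. These are ratios of transcript levels per length, not of proteins.

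Enzymes that release or cut peptides of these proteins were less abundant: 2 of 5 reached 10 TPM, and the median was 7.37 TPM. Prep, the prolyl oligopeptidase that can release the amino-terminal tetrapeptide of thymosin beta 4, had 115 TPM in replicate 1 and 87.2 TPM in replicate 2. Lgmn, the legumain that cuts prothymosin alpha, had 56.1 and 70.1 TPM. Ace, which degrades the released tetrapeptide, had 6.69 and 8.05 TPM. Mep1b was lowest, at 0.14 and 0.23 TPM.

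Of 17 histone chaperone genes, which like Ptma and Ptms encode proteins that handle histones, 16 reached 10 TPM and 4 reached 100 TPM, with a median of 30.6 TPM. The highest were Ssrp1, a subunit of the FACT complex, at 239 TPM in replicate 1 and 194 TPM in replicate 2, Asf1b at 201 and 133 TPM, and Npm1 at 156 and 131 TPM. Asf1a was lowest, at 7.49 and 5.54 TPM. Ptma and Ptms lay above all 17 in both libraries. Of 7 linker histone genes, 6 reached 10 TPM and 0 reached 100 TPM, with a median of 18.9 TPM. Hist1h1c was highest, at 40.3 and 32.3 TPM, followed by H1f0 at 39.0 and 25.2 TPM and Hist1h1b at 23.5 and 17.6 TPM. Hist1h1a was lowest, at 8.09 and 6.58 TPM. The libraries were labelled as polyadenylated RNA, and most replication-dependent histone transcripts lack a poly(A) tail.

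Thymopoietin was in the upper range of a list of 18 genes for the nuclear lamina and the LEM domain family. The list also holds Hdac3, Rb1 and Gmcl1, which belong to neither. Of the 18 genes, 16 reached 10 TPM and 5, Hdac3 among them, reached 100 TPM, with a median of 44.6 TPM. Banf1 had 271 TPM in replicate 1 and 268 TPM in replicate 2. Sun2, of the bridge between the nuclear envelope and the cytoskeleton, had 248 and 193 TPM, and the lamin B receptor gene Lbr 169 and 145 TPM. Lmnb1, the lamin B1 gene, had 155 and 63.6 TPM, and Emd, which encodes the LEM protein emerin, 92.4 and 76.9 TPM. Lemd3 was lowest, at 9.00 and 6.93 TPM. Banf1 exceeded Tmpo by 2.01 times in replicate 1 and 3.32 times in replicate 2. Lmnb1 was 1.15 times Tmpo in replicate 1 and 0.786 times Tmpo in replicate 2, so the order of these 2 genes differed between libraries.

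Ptms and Tmsb4x were each represented almost wholly by a single transcript, whereas Ptma and Tmpo were divided. Ptms-201 took 99.8% of the Ptms TPM in replicate 1, against 99.7% in replicate 2. Tmsb4x-201 took 97.7 and 98.6%, and Tmsb10-203 took 85.0 and 84.1%. Of the other Tmsb10 transcripts, Tmsb10-204 took 11.0 and 12.0%, and its coding sequence parts from that of Tmsb10-203 after 100 bases. The transcripts were quantified on GENCODE M4. Matched by transcript identifier, the tables held 5 of the 13 Tmpo and 3 of the 5 Ptms transcripts of M21, and all those of the other members. For Tmpo the models under an identifier differed between releases. Tmpo-203 had 3413 bases in the tables and 1854 in M21, Tmpo-204 had 3317 and 1953, and Tmpo-205 had 3206 and 1842. Tmpo-201 had 3776 and 3772 bases. The TPM of Tmpo transcripts rest on the lengths in the tables, and their exons and coding sequences are described here from M21.

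In the authors' transcript estimates Ptma-202 took most of the Ptma signal, 75.1% of the gene's TPM in replicate 1, against 74.5% in replicate 2. Ptma-201 took 24.5 and 25.0%. In TPM, Ptma-202 had 1886 in replicate 1 and 1352 in replicate 2, and Ptma-201 had 615 and 453. The coding sequence of Ptma-202 is shown because it lacks most of the acidic stretch of Ptma-201, and capitals mark the bases after the point where the 2 part.
Ptma-202: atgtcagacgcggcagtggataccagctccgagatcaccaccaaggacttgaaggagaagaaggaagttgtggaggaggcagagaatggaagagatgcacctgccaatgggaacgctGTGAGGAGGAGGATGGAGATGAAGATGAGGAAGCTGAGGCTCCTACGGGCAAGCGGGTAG
The first 117 bases were shared. Ptma-202 skips an exon of 97 bases, which is not a whole number of codons. Its coding bases after the point of parting are thus read in another frame than in Ptma-201. Ptma-202 has 58 codons, of which 11, or 19.0%, are acidic. Its model also ends nearer the gene's start, at 86530371, against 86530712 for Ptma-201, so the models differ in their last exon as well as in splicing.

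A splice junction list for the whole series, deposited on mm9 and with no column tied to a library, was examined for Ptma after the transcript shares had been seen. Junctions were placed by the lengths of introns and of the exons between them. The junction found in Ptma-202 alone, with an intron of 486 bases, had 4 reads. The junction that enters the exon skipped by Ptma-202 (intron of 211 bases) had 7 reads, and the one that leaves it (178 bases) was not listed. Ptma-202 thus had 36.4% of the 11 reads out of exon 2, with an exact 95% binomial interval of 10.9 to 69.2%. Its share of TPM lay above that interval in both libraries. The interval covers the counting of these 11 reads alone, and not how well each junction was detected, so it cannot test that share. The outer junctions of the gene (introns of 2222 and 160 bases), which Ptma-201 and Ptma-202 both have, had 347 and 259 reads. The 486-base junction of Ptma-202 alone had 4. Of read-length words across the 211- and 178-base junctions, 100% also occurred in other annotated genes, against 0% across the 486-base junction. Across the outer junctions at most 58.7 and 62.7% did. In Ptms, 0% of such words were shared. Its inner junctions (introns of 204 and 168 bases) had 46 and 39 reads. Its outer ones (2570 and 175 bases) had 893 and 480 reads. The part of word sharing, or of position in the gene, in the junction counts was not tested.

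Tmpo was split over 5 protein-coding transcripts. Tmpo-201 accounted for 35.7% of Tmpo TPM in replicate 1, against 33.0% in replicate 2. Tmpo-202 took 28.8 and 28.2%, and Tmpo-205 took 26.5 and 23.1%. Tmpo-204 took 4.83 and 10.4%, and Tmpo-203 4.09 and 5.26%. Tmpo-201 parts from the others after 562 of its 2082 coding bases and then reads through a single long last exon. Among LAP2 proteins, the long form with such an end of its own, LAP2 alpha, lacks the membrane segment and is found in the nucleoplasm, whereas LAP2 beta and its relatives span the inner nuclear membrane. The point of parting is shown with 45 coding bases either side, bases after it in capitals.
Tmpo-201 window: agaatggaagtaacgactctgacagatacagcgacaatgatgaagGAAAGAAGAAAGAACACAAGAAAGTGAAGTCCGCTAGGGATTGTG
Tmpo-202 window: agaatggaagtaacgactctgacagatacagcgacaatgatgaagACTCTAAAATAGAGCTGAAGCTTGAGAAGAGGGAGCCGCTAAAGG
Tmpo-202, Tmpo-203, Tmpo-204 and Tmpo-205 differ by internal exons, and their coding sequences have 1359, 1239, 1143 and 1032 bases.

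**Figure D3:**
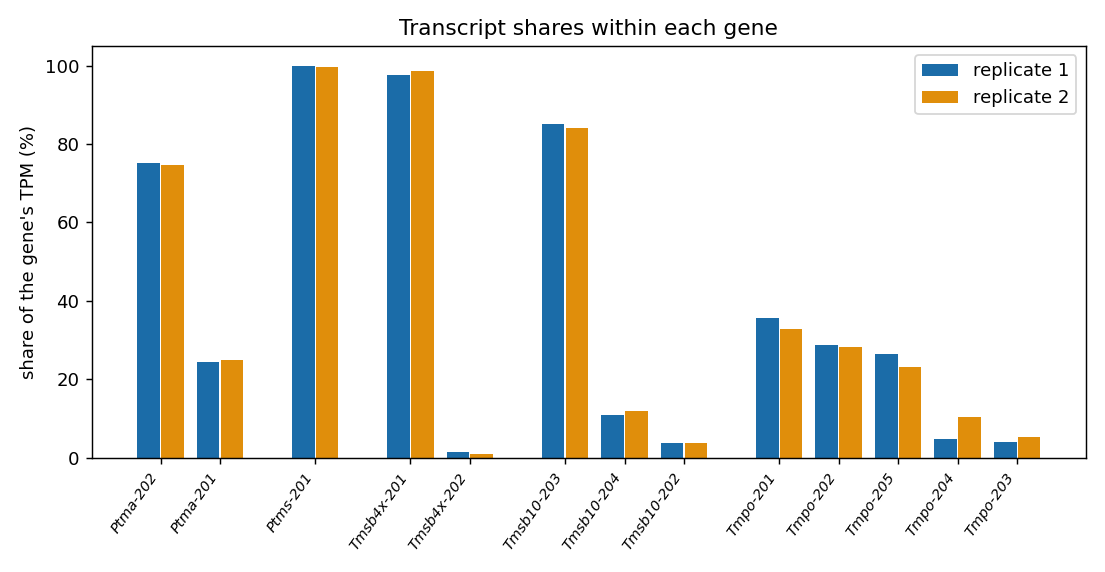
Share of each gene's TPM (%) taken by its transcripts with a mean share of at least 1%, in replicate 1 (left bar) and replicate 2 (right bar). Ptms-201 and Tmsb4x-201 exceed 97% in both libraries, Ptma-202 stands near 75%, and Tmpo is spread over 5 transcripts, with 35.7 and 33.0% for Tmpo-201.

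The junction list gave another split for Tmpo than the transcript table. Out of exon 3, 57 reads joined the last exon of Tmpo-201 and 544 reads the next exon of the other transcripts. Tmpo-201 thus had 9.48% of these reads, with an interval of 7.26 to 12.1%. Out of exon 4, 167 of 211 reads, or 79.1% (73.0 to 84.4%), had the junction of Tmpo-202, which keeps every internal exon. That transcript took 44.8% of the TPM of Tmpo-202 to Tmpo-205 in replicate 1 and 42.1% in replicate 2. Tmpo-205, which skips most, had 14 reads or 6.64% (3.67 to 10.9%), against 41.3 and 34.5% of TPM in replicates 1 and 2. Tmpo-203 had 23 and Tmpo-204 had 7 reads. Junctions that all 5 transcripts share differed among themselves, at 3157 reads for the first intron and 300 for the second, so these counts also vary along the gene. For Tmsb4x, the first intron of Tmsb4x-201 had 7828 reads, and those of Tmsb4x-202 and Tmsb4x-203 had 5 and 4 reads.

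Ptma and Tmsb10 had stretches in common with other annotated genes, within which single reads cannot be told apart. These genes were found by searching for identical words of 76 bases, the read length, and the choice followed a look at the values. Reads came in pairs, and whether a mate outside the stretch could place a read was not examined. In Ptma-201, 22.7% of words also occurred in other annotated genes, and in Ptma-202 12.6%. The processed pseudogene Gm4617 on chromosome 3, which shares 16.8% of the words of Ptma-201, was given 257 TPM in replicate 1 and 155 TPM in replicate 2. Its estimated fragments were 2465 with a posterior SD of 70.5 in replicate 1 and 2056 with 60.1 in replicate 2. The posterior SD of Ptma itself was 72.2 fragments of 58236 in replicate 1 and 61.8 of 58402 in replicate 2. Gm9800, on chromosome 14, had 11.1 and 7.45 TPM. Gm15466, which shares 0.351% of the words of Ptma-201, and Ptma-ps1, a pseudogene named after Ptma with no word in common, were listed at 0 in both libraries. Gm12504, which RefSeq names Ptma-ps2 and which also had no word in common, had 0.57 and 0.45 TPM.

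Of the words of Tmsb10-203, 45.9% were shared. Gm9844 on chromosome 7, which GENCODE M21 classes as protein-coding, shares 37.8% of its words and had 5.66 TPM in replicate 1 and 5.03 TPM in replicate 2. Gm3788 was listed at 0. How reads were split between Ptma or Tmsb10 and these genes rests on the authors' model, so these levels are uncertain to that extent. No word of the M21 models of Ptms, Tmpo or Tmsb4x was shared. The longer Tmpo models of the tables were not searched. On the opposite strand, A230083G16Rik overlaps Ptms by 3241 bases and had 0.29 and 0.08 TPM, and Gm26765 overlaps Tmpo by 1080 bases and was listed at 0.

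Tmpo and Ptma were higher in replicate 1 and Tmsb4x was lower there, but none of the 5 genes reached the size set for a call. Fold changes are replicate 1 over replicate 2, from counts scaled by TMM. Tmpo had 15637 fragments in replicate 1 and 12938 in replicate 2, a log2 ratio of 0.70, although replicate 2 was sequenced more deeply. Ptma had a log2 ratio of 0.43 and Tmsb10 of 0.13. Ptms was at -0.04, and Tmsb4x at -0.35, with 7186 fragments in replicate 1 and 12346 in replicate 2. A call needed an adjusted p under 0.05 in edgeR's binomial test together with a log2 ratio that was 1 or more in either direction, and 0 of 5 members met it, against 4.54% of 17198 genes tested. At the adjusted p alone, 5 of 5 members passed, against 52.0% of all genes. Passing depends on the number of fragments as well as on the ratio, so this count does not measure how far the members differed. In size, the log2 ratio of Tmpo exceeded 90.3% of those of all genes tested, and that of Ptma 76.7%. For Tmsb4x this was 69.6%, for Tmsb10 33.6% and for Ptms 11.5%. The adjusted p of edgeR's binomial test was 1.09e-58 for Tmsb4x, 0.00404 for Ptms and 0.00865 for Tmsb10, and for Ptma and Tmpo it was too small to be written. At an unadjusted p under 0.05 all 5 passed as well. The test covers counting error alone and compares these libraries. In bulk tissue, fewer cells of a type and less RNA per cell cannot be told apart. With a spread taken from the same 2 libraries (biological coefficient of variation 0.215), edgeR's negative binomial test passed 0 of 5, with every adjusted p at 1. Unadjusted p of that test ran from 0.112 for Tmpo to 0.923 for Ptms. Its spread holds the very differences under test, so ratios of common size could not pass. The 0 of 5 therefore does not show that the members were alike in both libraries. With total gene counts as library sizes, the adjusted p of edgeR's binomial test for Tmsb10 was 0.319.

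**Figure D4:**
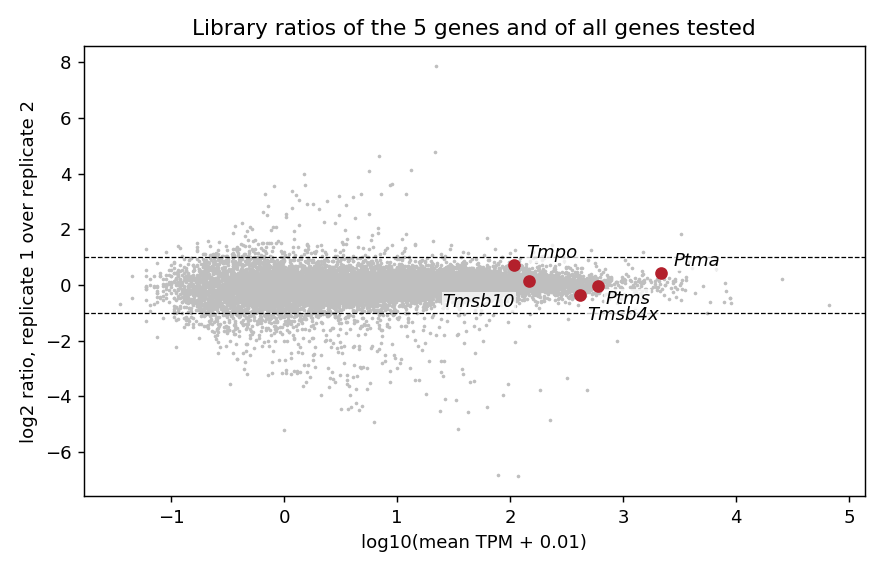
Log2 ratio of replicate 1 over replicate 2 against log10 of mean TPM (0.01 added) for all 17198 genes tested (grey) and the 5 genes (red), with dashed lines at log2 ratios of 1 and -1. All 5 lie between the lines, with Tmpo highest at 0.70 and Tmsb4x lowest at -0.35.

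Several genes of the pathways around the members also differed between the libraries. Of 17 histone chaperone genes, 15 had a log2 ratio above 0, with a median of 0.29, against -0.01 over all genes tested. At the adjusted p alone of edgeR's binomial test, 14 were higher and 1 was lower in replicate 1. Of all genes tested, 26.9% passed as higher and 25.1% as lower. The called chaperone gene was Anp32b, a histone-binding acidic protein, with 106 TPM in replicate 1 and 41.5 TPM in replicate 2. All 7 linker histone genes had a log2 ratio above 0, with a median of 0.59, and 6 passed at the adjusted p. The 1 called was H1fx, with 21.3 and 7.73 TPM. In the lamina and LEM list, 11 of 18 genes passed as higher and 3 as lower, with a median log2 ratio of 0.14. The 1 called was Lmnb1. Of the 24 actin genes, 11 passed as higher and 6 as lower, with a median of 0.01, and the 1 called was Cap2, lower in replicate 1. Anp32b and H1fx are named because they were the calls, after their values were seen. Single calls in lists of 17, 7, 18 and 24 genes stand beside 4.54% called over all genes tested, and are not read as a trait of the lists.

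A list of 14 cell division genes was added after the members' values were seen. At the adjusted p of edgeR's binomial test, 14 of 14 were higher in replicate 1. Their median log2 ratio was 0.49, with 0 calls at the full rule. Of all genes tested, 26.9% passed as higher and 25.1% as lower, and passing depends on the number of fragments as well as on the ratio. The replication clamp gene Pcna had 394 TPM in replicate 1 and 301 TPM in replicate 2, Ube2c had 364 and 258 TPM, and Ccna2 had 299 and 153 TPM. The lowest, Mki67, had 25.9 and 14.6 TPM. The marker lists had no gene at 0. The 8 T lineage markers summed to 3962 TPM in replicate 1 and 3973 TPM in replicate 2, and 4 passed at the adjusted p as higher and 3 as lower. The 6 epithelium markers summed to 1005 and 1338 TPM, with 5 lower in replicate 1, and the 6 myeloid markers to 546 and 746 TPM, with 6 lower. The 4 blood markers summed to 2474 and 3176 TPM, with 3 lower in replicate 1. The 8 stroma, vessel and fat markers summed to 1432 and 1098 TPM, with 3 higher and 3 lower and a median log2 ratio of 0.00. The 4 B cell markers summed to 79.4 and 65.9 TPM, with 2 higher. The calls in these lists, named after their values were seen, were Ucp1, the uncoupling protein of brown fat, at 346 and 124 TPM, and Pf4, of platelets, at 7.70 and 17.3 TPM. They were 1 of 8 and 1 of 4 genes of their lists, against 4.54% called over all genes tested. The part of these lists in the ratios of Tmpo, Ptma and Tmsb4x was not tested.

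**Figure D5:**
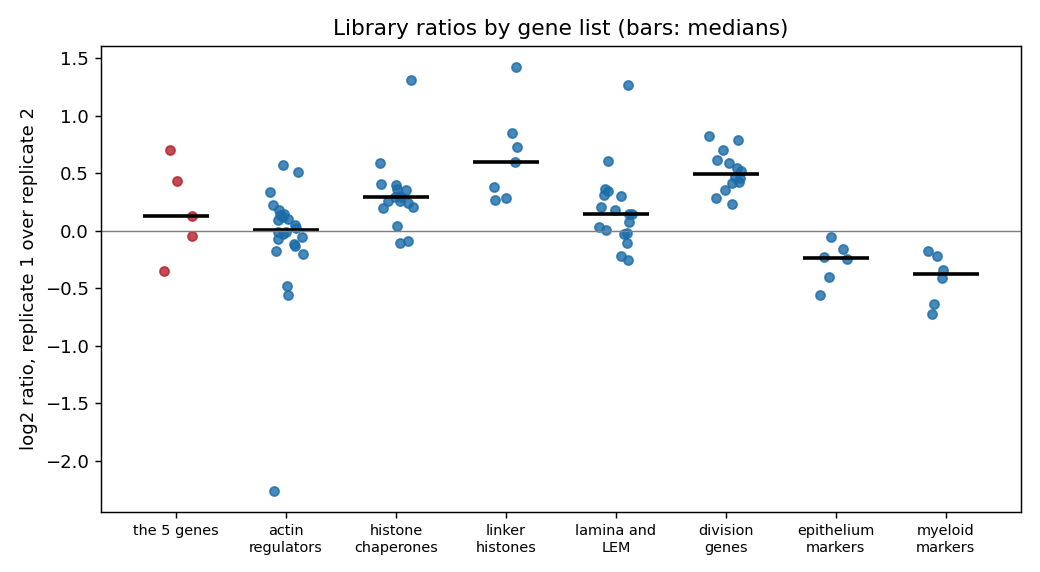
Log2 ratio of replicate 1 over replicate 2 for each tested gene of the listed groups, with black bars for medians and the 5 genes in red at the left. All 14 division genes and all 7 linker histone genes lie above 0, the epithelium and myeloid markers lie below 0, and Cap2, among the actin regulators, is lowest.

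The share of each member's leading transcript differed by at most 2.86 percentage points between the libraries. The share of the leading transcript in the gene's fragments was compared by Fisher's exact test, two-sided, over 9858 genes. A call needed an adjusted p under 0.05 and a change of at least 10 percentage points. It was met by 0 of 5 members and by 14.6% of genes tested. At the adjusted p alone 3 of 5 passed, against 48.0% of genes, and the same 3 passed at an unadjusted p under 0.05. Tmpo-201 had 38.5% of fragments in replicate 1 and 35.6% in replicate 2, a difference of 2.86 points (Fisher's exact test, adjusted p = 3.08e-06). Tmsb4x-201 had 97.5 and 98.4%, a difference of -0.914 points (Fisher's exact test, adjusted p = 3.87e-05). Ptma-202 had 62.7 and 62.1%, a difference of 0.667 points (Fisher's exact test, adjusted p = 0.0401). The adjusted p of the same test was 0.332 for Ptms-201 and 0.744 for Tmsb10-203. The test takes estimated fragments as counts and does not cover how the authors' model split reads between transcripts.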

How the data were processed

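Stranded, rRNA-depleted polyadenylated RNA over 200 nucleotides was sequenced as 76-base pairs with spike-ins added, per the labels. The deposited tables give expected counts (estimated fragments, not normalised), TPM over all features and transcript shares in percent, per the file headers, quantified on mm10 with GENCODE M4 per the text deposited with them. Which aligner and quantifier made them is not given in the sources used here. The deposited interval bounds (a signal in TPM) and the deposited posterior spread of counts (a score) served as descriptions. The deposited junction list has no header and gives a single whole number per junction for the series. These numbers were taken as counts of reads from their values.

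Features that are not genes held 1.49% of fragments in replicate 1 and 1.48% in replicate 2 and were left out. Names, models and sequences came from GENCODE M21, which matched 42462 genes. Expected counts were rounded. Library sizes were scaled by TMM, genes were filtered by filterByExpr, and edgeR's binomial test, which takes a chi-square form at high counts, was adjusted by Benjamini-Hochberg over all genes tested. The libraries were counted as separate, as they are labelled. They differed beyond counting error at 8938 of 17198 genes, which cannot tell biological from technical repeats. A prior count of 0.5 entered log2 ratios. Fisher's exact test covered genes with at least 2 transcripts and a mean of 1 TPM. Both tests were tested on simulated data with counting error alone. The simulations held no further spread between libraries and no error in splitting reads, so they do not cover these. Shared words were found with BLAST 2.17.0 and exact matching.

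Junctions were placed on mm9 by matching the chain of intron and exon lengths of 1 model per gene, and no coordinate was converted. The best placement matched 3 of 4 Ptma introns and every intron of the other members, against at most 1 intron for the next best, on the chromosome and strand of the gene.

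The members and lists were chosen with earlier results of these data known. Genes named are the members, the 3 highest and the lowest of each pathway list, direct partners, the 2 nearest genes to each member and named copies. The use of the junction list, the division list, the word-sharing copies, the acidic codons and the sequences printed were chosen after values had been seen. Contigs were not used here. Alternatives were other library sizes, filters, units, a negative binomial test and each library alone. Fits used edgeR 4.0.16 with DESeq2 1.42.0 (size factors only) in R 4.3.3. Other steps used Python 3.11.15 with scipy 1.17.1, numpy 2.4.6 and pandas 2.3.3, and plots matplotlib 3.10.9.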

Additional observations from a re-analysis of the deposited data

How the results depend on the processing

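Each library alone kept the 5 levels, the 5 leading shares and the 7 list medians within 1 SD. For levels and shares this follows from taking 1 of 2 values, and for list medians nearly so, so it does not show stability. As CPM, levels were 1070 for Ptma, 420 for Ptms, 173 for Tmsb4x, 38.1 for Tmsb10 and 265 for Tmpo, since length is then not divided out. TPM rescaled over protein-coding genes gave 2711 for Ptma, 754 for Ptms, 524 for Tmsb4x and 186 for Tmsb10. The posterior mean for Ptms was 594 TPM. Adding the copies, an alternative chosen after seeing the data, gave 2379 TPM for Ptma and 153 TPM for Tmsb10. As shares of fragments, Ptma-202 had 62.4%, Tmpo-201 37.1%, Tmsb10-203 87.3% and Ptms-201 99.9%. In CPM, list medians were 0.0851 for the other beta thymosins, 55.5 for histone chaperones, 8.11 for linker histones, 68.3 for lamina and LEM genes and 23.6 for peptide processing. Between the libraries, 780 genes were called, 209 higher and 571 lower in replicate 1, against 1443 with no filter on low counts and 218 with the negative binomial test. Leading shares were called for 1436 genes, against 4736 with any size of change and 568 at 10 TPM or more. No member's log2 ratio changed sign or reached 1 under the 4 alternatives. With total gene counts the median ratio shifted to -0.08. The junction reads of Ptma limit its split to 11 reads. No paired analysis was possible because the series holds 1 group, so no groups share replicate numbers.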
